A study of Mus musculus with 12 samples.

Results

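Cardiac gene expression was compared between the control hearts of embryos at E10.5 (Ctrl E10.5) and control cardiomyocytes isolated from adult mice (Ctrl adult), the control arms of a study of Med30, a subunit of the Mediator complex. The comparison took 6 of the 12 RNA-seq samples of the series, 3 in each group, and no knockout sample. It covered the 11455 genes with a mean above 1 RPKM (a read count divided by the length of the gene and by the depth of its library) in either group, out of the 20775 genes by symbol in each deposited table. Mice were on the C57BL/6 strain. The labels call both control groups wild type, while the methods of the study describe controls as Med30 f/f mice without Cre: littermates of the embryos carrying Tnnt-Cre at E10.5, and mice negative for αMHC-MerCreMer as adults. Adult controls were given tamoxifen, and their cells were collected 4 weeks after tamoxifen, at 3 months of age, by perfusing the heart with collagenase. The source label of both groups is the heart, while the protocol of the adult group describes isolated cardiomyocytes. Embryonic samples were hearts, with all their cell types, and whether several hearts entered a sample is not given in the sources used here. Age, whole heart against isolated cells, tamoxifen, enzymatic isolation and the table an RPKM came from all change together between the groups, so their contributions cannot be told apart, and in bulk RNA neither can fewer cells of a type and less RNA per cell.

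The embryonic heart tube starts to beat before it has formed its chambers, with cardiomyocytes that divide, use glucose and build a sarcomere (the contractile unit of striated muscle) partly from slow skeletal and smooth muscle forms of its proteins. After birth cardiomyocytes stop dividing, fill with mitochondria, turn to fatty acids as their main fuel, and replace many of these proteins by adult forms encoded by separate genes. At E10.5 the heart also holds an endocardium that is filling the cushions (the precursors of valves) with mesenchyme and matrix, and an epicardium that is spreading over its surface.

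Over the 11455 genes, log2(RPKM + 0.1) correlated with Pearson's r between 0.975 and 0.985 among the embryonic libraries, between 0.982 and 0.989 among the adult libraries, and between 0.461 and 0.503 across the groups, as a description over genes of one sample pair each. The reads behind the RPKM, estimated from the spacing of the lowest values, numbered 15900000 to 19900000 in the embryonic and 13200000 to 17500000 in the adult libraries. A transcript of 2 kb with 3 reads would then have 0.0753 to 0.114 RPKM, which covers counting error only. The 20 most abundant genes took 9.59% to 10.6% of the summed RPKM in embryonic and 24.8% to 25.4% in adult libraries, so a scaling between the tables was needed: libraries were divided by the median ratio over 8145 genes, which moved log2 differences by up to 0.46 towards the adult group, and those of low genes by less. Embryonic replicate 2 differed from the rest in its Y-linked genes: Eif2s3y had 19.5, 0.037 and 16.2 RPKM in embryonic and 17.8, 15.8 and 15.4 in adult libraries. Differences below are adult minus embryo on log2(scaled RPKM + 0.1), which understates the differences of low genes. Levels are RPKM as deposited, for the 3 libraries of a group in the order of their replicate numbers.

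A gene was called where limma's adjusted p (Benjamini-Hochberg, over all 11455 genes) was under 0.05 and the log2 difference was beyond 1. By this rule 2443 genes (21.3%) were higher in Ctrl adult cardiomyocytes and 3726 (32.5%) were higher in Ctrl E10.5 hearts. Beyond a log2 difference of 3, which is 8-fold, 618 genes were higher in adult and 1203 in embryonic samples, together 15.9% of those tested. These shares are the background against which each gene list below is read, together with the median difference of all genes tested, which was −0.30. All 3 adult libraries lay above all 3 embryonic libraries in 34.7% of the genes, and all 3 embryonic libraries lay above in 50%. Every gene described below as higher or lower, or as having changed, was called. Of the genes tested, 8583 were above 1 RPKM in both groups, 2340 in the embryonic group alone and 532 in the adult group alone, and a gene of the last 2 kinds entered the comparison through the group in which it was high, so the counts and medians of lists are given as a description. The balance of the calls moved with the scaling: with RPKM as deposited 1783 genes were higher in adult and 4984 in embryonic samples, with equal sums 1427 and 6069, and with quantile normalization 2735 and 3080. Scaling on Mediator and RNA polymerase II genes gave 3157 in adult and 2979 in embryonic samples, and it was the only one of the 7 scalings with more genes higher in adult samples.

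**Figure D1:**
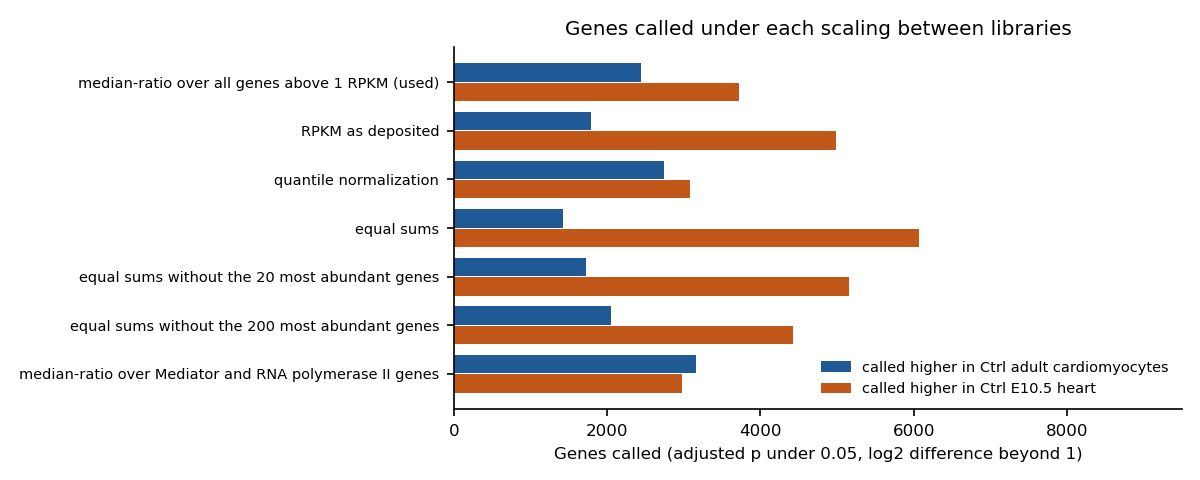
Number of genes called higher in Ctrl adult cardiomyocytes (blue) and in Ctrl E10.5 heart (orange) under each of 7 ways to scale the libraries of the 2 tables. Embryonic calls range from 2979 to 6069 and adult calls from 1427 to 3157.

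**Figure D2:**
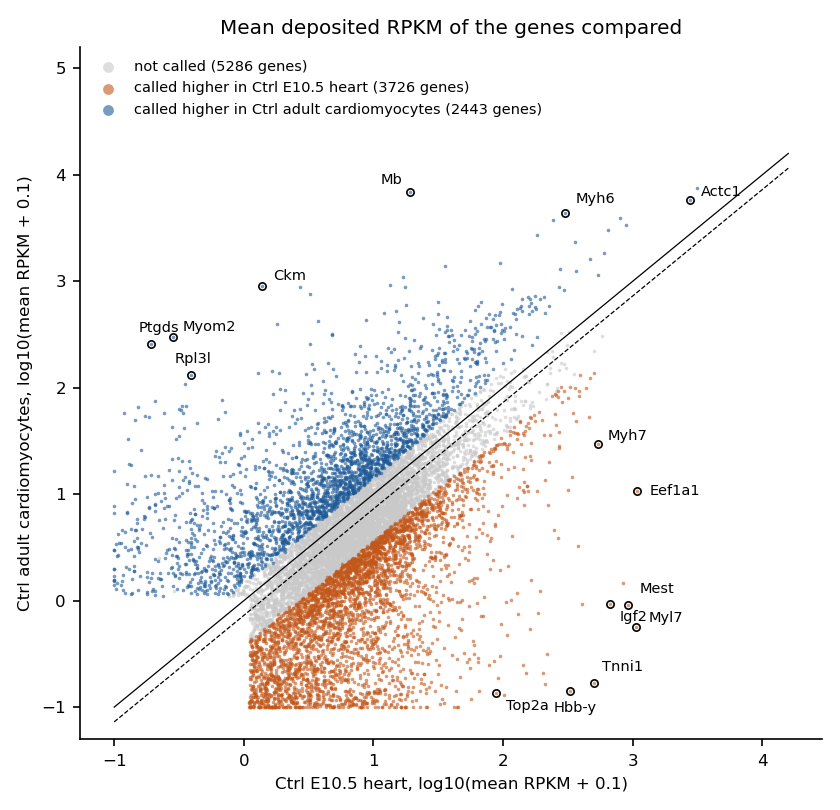
Mean deposited RPKM of each gene in 3 Ctrl E10.5 heart libraries (horizontal axis) and 3 Ctrl adult cardiomyocyte libraries (vertical axis), as log10(mean RPKM + 0.1); points are genes, coloured by call, the solid line marks equal deposited RPKM and the dashed line equal scaled RPKM. Genes such as Tnni1, Myl7 and Mest lie near 0 RPKM in adult cells while Mb, Ckm and Myom2 lie far above the lines.

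The marker genes of cell types set the samples apart in the direction of their labels. The 12 cardiomyocyte markers had a summed RPKM of 5765 to 7575 in embryonic and 18385 to 19723 in adult libraries, and 9 were higher in adult cells while 2, Myl7 and Myh7, were higher in embryonic hearts. Of 14 endocardial and cushion markers 12 were higher in embryonic hearts, with a summed RPKM of 333 to 424 against 12.6 to 16.6, and Prrx2 was listed at 0 in all adult libraries. All 9 epicardial markers tested were higher in embryonic hearts (78.3 to 91.5 against 1.58 to 4.12 summed RPKM over the 10 of the list), and so were 7 of 10 fibroblast markers tested (116 to 198 against 20.3 to 33.5 over 14). Above 1 RPKM in the embryonic group alone were 11 endocardial and cushion, all 9 epicardial and 7 fibroblast markers. These entered the comparison through the group in which they were high. Of 14 endothelial markers 11 were higher in embryonic hearts, and the list summed to 206 to 271 RPKM there and to 38.8 to 96.9 in adult libraries. In this list 2 markers were above 1 RPKM in the adult group alone. Fabp4 and Ly6c1, capillary endothelial markers of the adult, went the other way: Fabp4 had 0.368, 0 and 0.274 RPKM in embryonic hearts and 18.3, 41.7 and 45.3 in adult cells, where replicate 1 lay lowest.

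Mural and smooth muscle markers were at 667 to 781 against 497 to 553 summed RPKM, with 6 of 9 tested higher in embryonic hearts and 2, Des and Rgs5, in adult cells. Of the 9, 3 were above 1 RPKM in the embryonic group alone. Des, the desmin gene, which cardiomyocytes also express, had 139, 107 and 133 RPKM in embryonic hearts and 429, 464 and 429 in adult cells. Without Des, an alternative chosen after seeing the data, the sums were 534 to 641 in embryonic and 68.6 to 89.7 in adult libraries.

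Transcripts of red blood cells were part of the embryonic samples. Of 11 erythroid markers tested, 7 were above 1 RPKM in the embryonic group alone. In all, 9 were higher in embryonic hearts, led by the embryonic globins Hbb-y, Hbb-bh1 and Hba-x of primitive red cells. Hbb-y had 452, 142 and 394 RPKM in embryonic hearts and 0.123, 0 and 0 in adult cells, with embryonic replicate 2 at the low end, and the list summed to 331 to 1102 against 1.63 to 21.5 RPKM. Macrophage and leukocyte markers were low in both groups, with 12 of 14 below the filter and sums of 8.95 to 12.3 and 3.46 to 5.94. Of 10 neural crest and neuron markers 8 were below the filter, and so were 8 of 9 liver and foregut markers. Genes of these cell types were higher in embryonic hearts together with every gene list that was higher there, and their part in those lists was not tested.

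**Figure D3:**
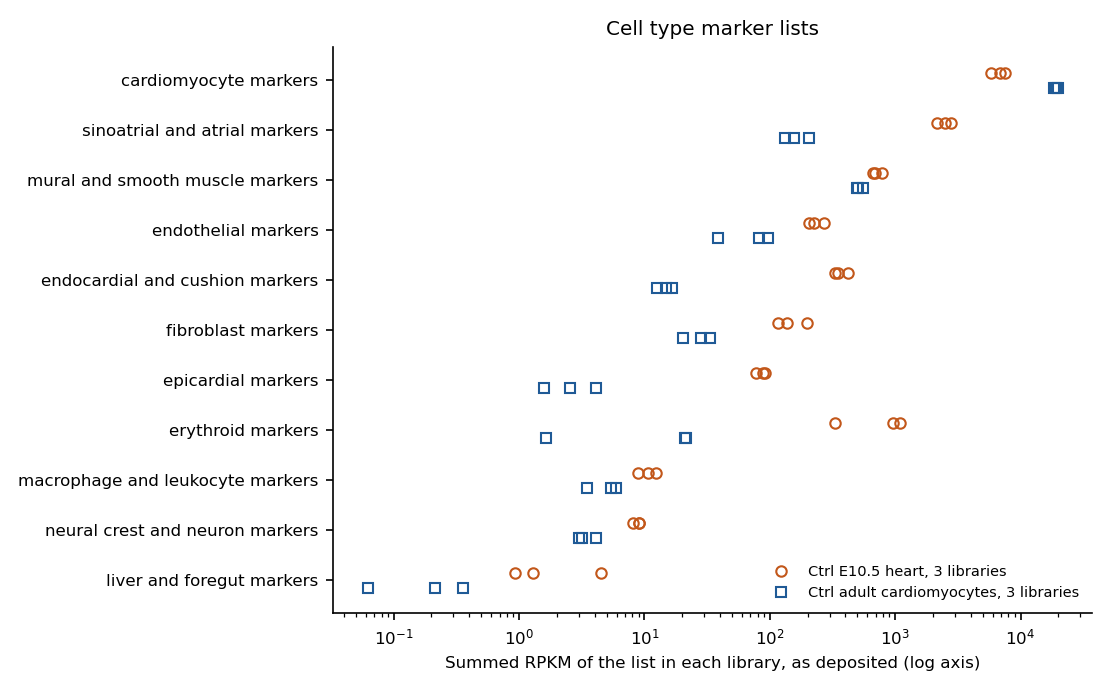
Summed RPKM as deposited of each cell type marker list (log axis) in the 3 Ctrl E10.5 heart libraries (circles) and the 3 Ctrl adult cardiomyocyte libraries (squares). Groups do not overlap for any list shown, and the epicardial and the endocardial and cushion lists differ most among the heart's own cell types.

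Atrial genes were mostly higher in embryonic hearts. The share of atrial cells in either group is not given in the sources used here, so chamber and stage cannot be told apart in these genes. The atrial light chain gene Myl4 had 942, 714 and 870.5 RPKM in embryonic hearts and 1.39, 1.63 and 1.08 in adult cells, and Bmp10, a growth factor of the trabeculae and later of the right atrium, had 30.3, 21.1 and 26.4 RPKM and was listed at 0 in all adult libraries, at least 1334-fold lower against a floor of 3 reads over the group. Nppa, the atrial natriuretic peptide gene, which the embryonic ventricle also expresses, had 560.4, 428 and 515 RPKM in embryonic hearts and 102, 130.1 and 176 in adult cells. The 2 groups did not overlap in Nppa. Of the 11 sinoatrial and atrial markers tested, 8 were higher in embryonic hearts and 2 in adult cells, among them Kcnj3, a subunit of the muscarinic potassium channel. Of the 11, 6 were above 1 RPKM in the embryonic group alone.

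The genes furthest apart outline the comparison. Among genes above 20 RPKM in adult cells, called, and higher in every adult library, the largest differences were those of Ptgds, Myom2, Ckm, Ces1d, Asb11, Rpl3l, Tuba8, Mb, Ckmt2 and Mylk4. They encode a prostaglandin D synthase, an M-band protein, muscle creatine kinase, a carboxylesterase, a ubiquitin ligase adaptor, a muscle ribosomal protein, a tubulin, myoglobin, mitochondrial creatine kinase and a myosin light chain kinase. Ptgds had 0.125, 0.157 and 0 RPKM in embryonic hearts and 386, 193 and 192 in adult cells, and its log2 difference was 10.72 (standard error 0.37, limma adjusted p = 4.65e-08). Where embryonic levels were this close to 0, the fitted difference depends on the pseudocount. Mb, the oxygen store of muscle, had 19.4, 19.4 and 18.3 RPKM in embryonic hearts and 6981, 6543 and 7176 in adult cells (difference 8.95, standard error 0.10, limma adjusted p = 7.62e-10). Ckm had 1.13, 1.43 and 1.32 RPKM against 927, 929 and 847 (difference 9.78, standard error 0.12, limma adjusted p = 1.06e-09).

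In the other direction, genes were taken that were above 20 RPKM in embryonic hearts, called, and higher in every embryonic library. The largest differences among them were those of Tnni1, Hbb-y, Myl7, Hbb-bh1, Mest, Hba-x, Mdk, Capn6, Vcan and Hist1h1b. Besides the globins and 2 sarcomere genes these were an imprinted gene (Mest), the growth factor midkine (Mdk), a calpain-like protein without protease activity (Capn6), the proteoglycan versican of the cushion matrix (Vcan) and a linker histone (Hist1h1b). Mest had 967, 886 and 883 RPKM in embryonic hearts, the fifth highest level there, and 0.889, 0.787 and 0.741 in adult cells. Vcan had 167, 141 and 143 RPKM against 0.095, 0.083 and 0.154, and Capn6 had 108, 102 and 94.2 against 0.043, 0.016 and 0.033. That the groups do not overlap in these genes was a condition of this choice.

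The most abundant transcripts were shared only in part. In embryonic hearts the 5 highest means were those of Myl2, Actc1, Eef1a1, Myl7 and Mest, and in adult cells those of Myl2, Mb, Actc1, Myh6 and Tpm1. Actc1, the cardiac actin gene, had 3016, 2504 and 2839 RPKM in embryonic hearts and 6016, 5415 and 6023 in adult cells, a log2 difference of 1.52 (limma adjusted p = 0.000135). That direction turned under quantile normalization, where the difference was −0.83.

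**Figure D4:**
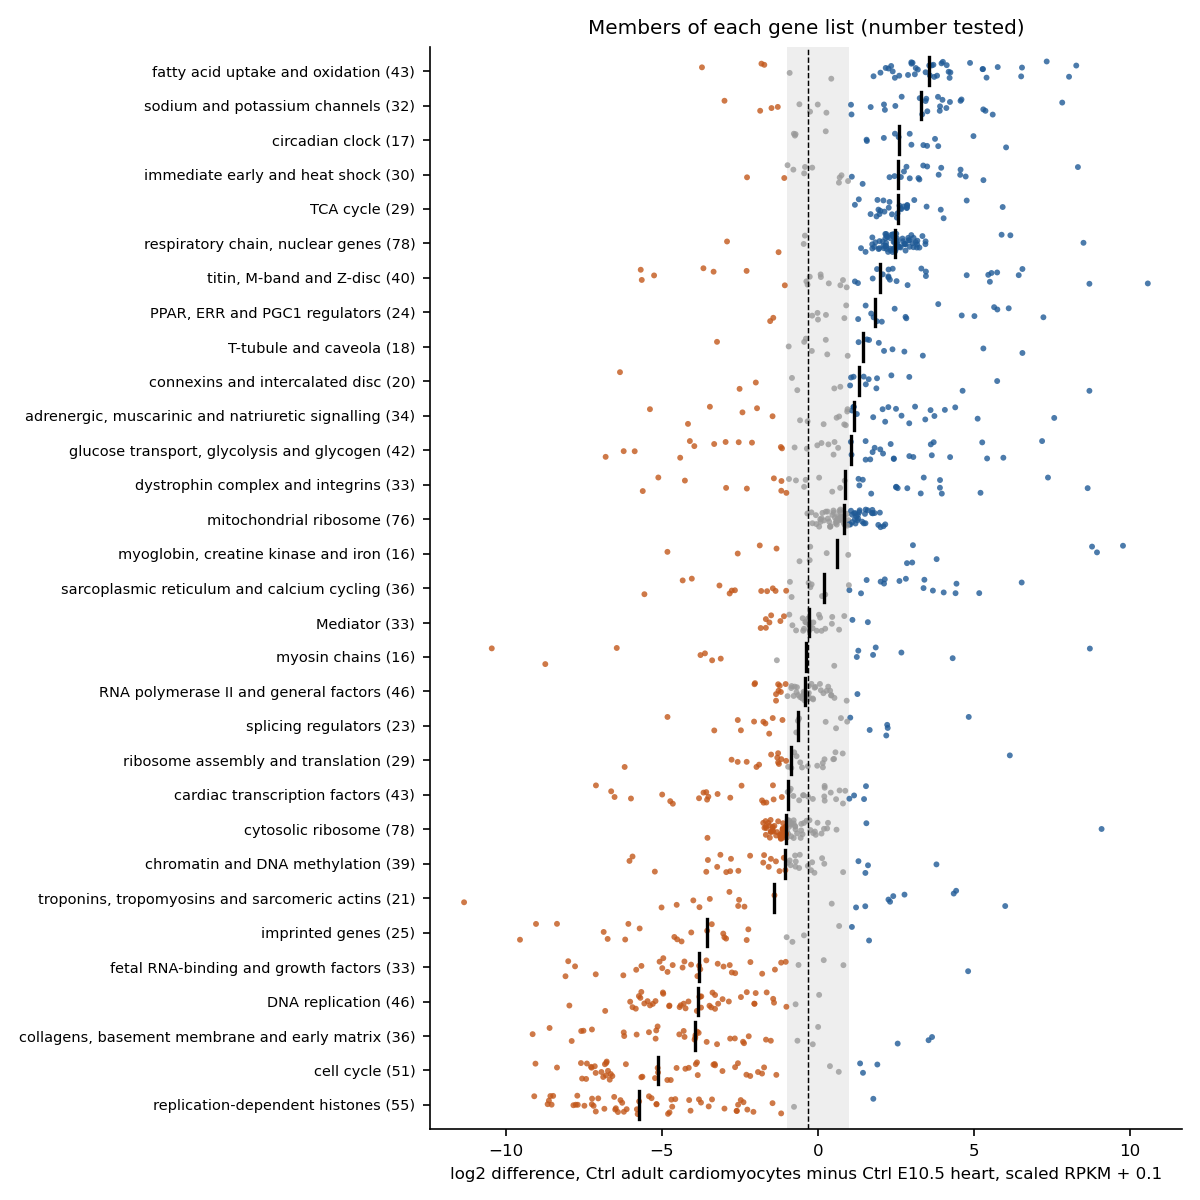
Log2 difference (Ctrl adult cardiomyocytes minus Ctrl E10.5 heart, scaled RPKM + 0.1) of each tested member of 31 gene lists, ordered by their medians; points are genes, blue if called higher in adult, orange if called higher in embryonic samples and grey if not called, bars are list medians, the dashed line is the median of all genes (−0.30) and the shaded band spans −1 to 1. Fatty acid, channel and TCA cycle lists lie to the right, and histones, cell cycle and matrix lists to the left.

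For many pairs of related genes the more abundant transcript differed between the stages. In 31 pairs of related genes, taken as an embryonic and an adult form from textbook knowledge and with results of these data known, the log2 ratio of the adult to the embryonic form was computed within each library, so that it does not depend on the scaling between the tables. The ratio was higher in all 3 adult libraries than in any embryonic library in 28 pairs, lower in 1 (Cacna1c over Cacna1g) and overlapping in 2 (Cav3 over Cav1 and Fkbp1b over Fkbp1a). The more abundant form changed in 19 pairs, and in 17 the embryonic form was called higher in embryonic hearts and the adult form higher in adult cells. An exact permutation test of 3 libraries against 3 cannot go below 0.1 (two-sided), and the direction was set by how pairs were chosen, so the pairs are a description of sizes. The median change of the log2 ratio over the pairs was 6.91. Where a form lay near 0 RPKM, the size of the ratio depends on the pseudocount of 0.1.

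Troponin I is the inhibitory subunit of the thin filament switch, and its pair differed by 15.54 on the log2 scale of the ratio. Its slow skeletal gene Tnni1 (chromosome 1, 135779434 to 135810989, GRCm38) had 462, 510.1 and 526 RPKM in embryonic hearts and 0.147, 0.055 and 0 in adult cells. The cardiac gene Tnni3 (chromosome 7, 4518305 to 4524229) had 227, 149.9 and 172 against 2677, 2634 and 2771. The log2 differences were −11.33 (standard error 0.31, limma adjusted p = 1.76e-08) for Tnni1 and 4.36 (standard error 0.14, limma adjusted p = 3.04e-08) for Tnni3. Tnni3 thus made up a mean of 26.8% of the summed RPKM of the pair in embryonic hearts and 99.997% in adult cells. With Tnni1 this near 0 in adult cells, the sizes of its difference and of the ratio depend on the pseudocount.

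Myosin heavy chain, the motor of the thick filament, changed from its slow (beta) to its fast (alpha) form. Myh7 (chromosome 14, 54970684 to 54994626) had 609, 410.04 and 589 RPKM in embryonic hearts and 19.5, 32.8 and 35.4 in adult cells, and Myh6 (chromosome 14, 54941921 to 54966927) had 337, 300.04 and 268 against 4522, 4389 and 4232. Myh7 fell by 3.76 and Myh6 rose by 4.33 on the log2 scale (standard errors 0.23 and 0.14). Myh7 was the larger of the pair in every embryonic library and Myh6 in every adult library. Their coding sequences are closely related, and how reads that fit both genes were assigned is not given in the sources used here, so the lesser form is uncertain.

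In both classes of myosin light chain the atrial form was higher in embryonic hearts and the ventricular form in adult cells. As for the atrial genes above, chamber and stage cannot be told apart in these pairs. The atrial regulatory light chain gene Myl7 had 1192, 953 and 1050.2 RPKM in embryonic hearts and 0.518, 0.389 and 0.505 in adult cells, while the ventricular gene Myl2 had 4132, 2317 and 2867 against 7011, 7478 and 8059 (differences −10.45 and 1.77, the latter 0.053 by quantile normalization). Myl2 was already the larger of this pair in the embryo. For the essential light chains, the ventricular gene Myl3 had 738, 525 and 684 RPKM in embryonic hearts and 2938, 3028 and 3033 in adult cells, while Myl4 was larger in the embryo, as given above. Over all 16 myosin chain genes tested, 7 were higher in adult cells and 7 in embryonic hearts (median difference −0.39). The non-muscle and smooth muscle members among them, Myl9, Myl6, Myh9 and Myh10, were all higher in embryonic hearts.

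**Figure D5:**
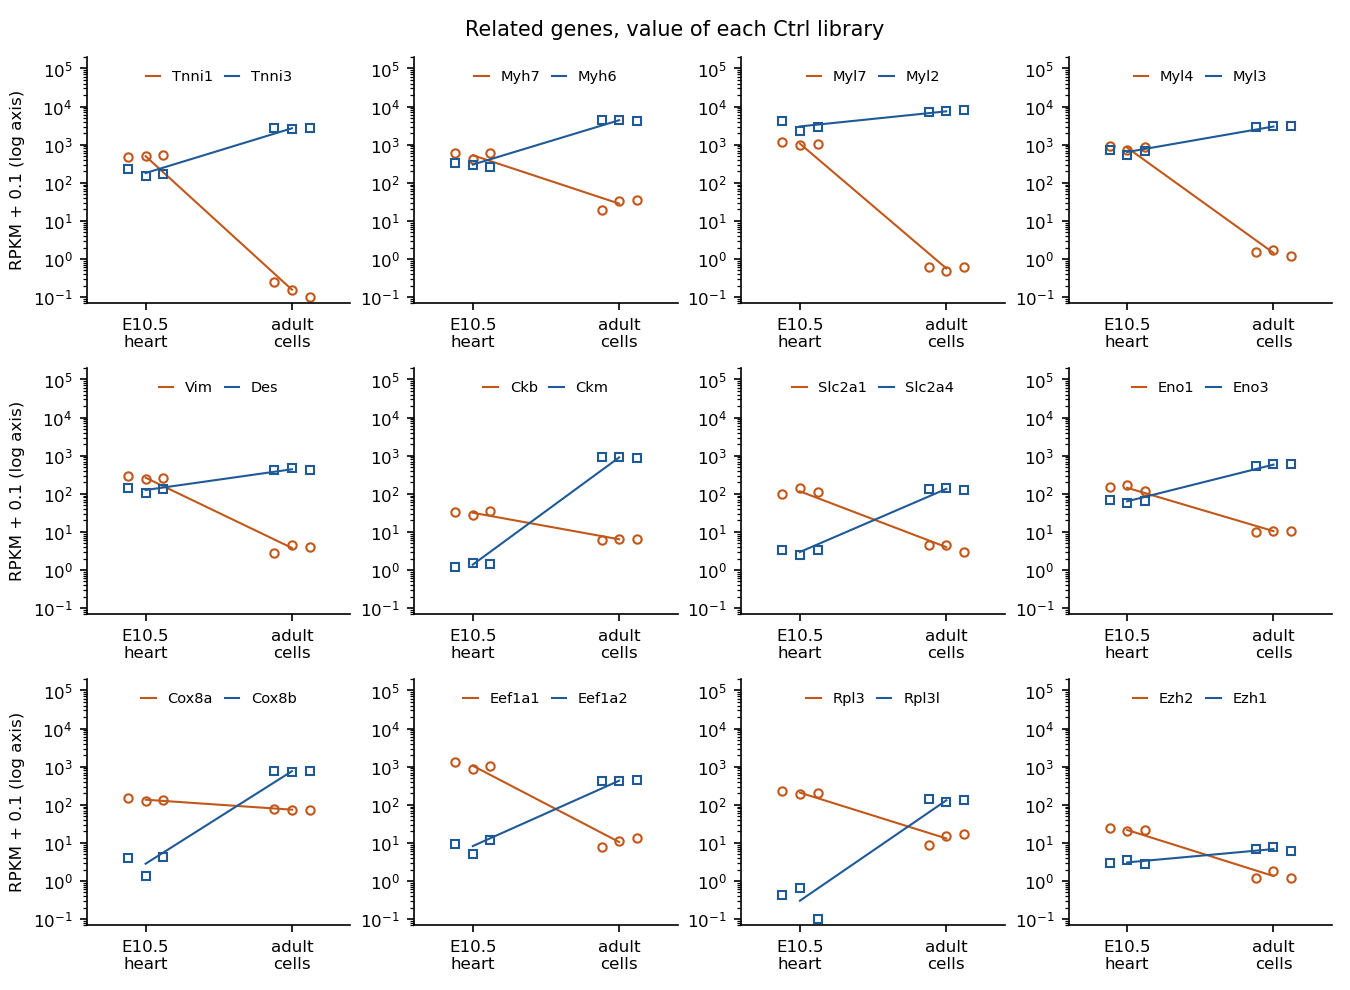
RPKM + 0.1 (log axis) of 12 pairs of related genes in each of the 3 Ctrl E10.5 heart and 3 Ctrl adult cardiomyocyte libraries; points are libraries, lines join group means on the log scale, circles and orange mark the embryonic form, squares and blue the adult form. Lines cross in the panels where the more abundant form changes, as for Tnni1 and Tnni3.

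Of 21 troponin, tropomyosin and actin genes tested, 9 were higher in adult cells and 11 in embryonic hearts, with a median difference of −1.39. The smooth muscle actin gene Acta2 had 378, 374 and 346 RPKM in embryonic hearts and 48.96, 63.5 and 31.9 in adult cells. The skeletal actin gene Acta1 was the one member not called (limma adjusted p = 0.376): it had 112, 118 and 113 RPKM in embryonic hearts and 57.7, 99.8 and 253 in adult cells. Adult replicate 3 alone lay above the embryonic libraries, and the difference of 0.45 turned negative without it (−0.12) as well as with RPKM as deposited (−0.0094).

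Genes of the sarcomere scaffold were mostly higher in adult cells. Of 40 genes of titin, the M-band and the Z-disc tested, 24 were higher in adult cells and 7 in embryonic hearts (median 1.99). Ttn, the giant elastic ruler of the sarcomere, had 185, 148 and 193 RPKM in embryonic hearts and 758, 709.9 and 727 in adult cells, and Tcap, its Z-disc cap, had 12.6, 12.5 and 14.8 against 939, 931 and 884. Myom2, the M-band protein of adult muscle, had 0.05, 0.408 and 0.088 RPKM in embryonic hearts and 256, 345 and 291 in adult cells, (difference 10.58, standard error 0.40, limma adjusted p = 6.77e-08). Xirp2, an actin-binding protein of the intercalated disc, went from 0.345, 0.304 and 0.114 to 115, 95.4 and 115 RPKM. In each of these 4 genes every adult library lay above every embryonic one. Among those higher in embryonic hearts were Vim, a mesenchymal filament gene, Myoz1 (7.52, 6.91 and 6.19 against 0.059, 0 and 0 RPKM) and Mybphl, an atrial myosin-binding protein.

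Genes of calcium handling were higher in either group, depending on the gene. Of 36 genes of the sarcoplasmic reticulum and calcium cycling tested, 16 were higher in adult cells (44.4%, against 21.3% of all genes). In embryonic hearts 12 were higher (33.3%), near the 32.5% of all genes. The median of 0.19 changed its sign with RPKM as deposited (−0.26). Genes of calcium release and uptake were among the 16. Ryr2, the calcium release channel, had 41.1, 38.1 and 40.8 RPKM in embryonic hearts and 325, 312 and 299 in adult cells (difference 3.42, standard error 0.07, limma adjusted p = 7.89e-09), and phospholamban (Pln), the inhibitor of the calcium pump, had 110.3, 73.9 and 100.01 against 1486, 1472 and 1494. The pump itself, Atp2a2, had 269, 227 and 236 against 3842, 3798 and 3705 (difference 4.42, standard error 0.12, limma adjusted p = 1.55e-08). Of the calcium buffers of the store, cardiac calsequestrin (Casq2) had 6.82, 3.57 and 3.64 RPKM in embryonic hearts and 310.4, 290.2 and 328 in adult cells, while calreticulin (Calr) fell from 298, 269 and 269 to 99.4, 109.8 and 92.96 (−1.01). Skeletal calsequestrin, Casq1, was the larger calsequestrin in every embryonic library, with 92.7, 83.1 and 87.6 RPKM, and had 9.14, 28.4 and 49.6 in adult cells, where its libraries spread widely. Its difference of −1.44 missed an adjusted p of 0.05 by limma when any 1 embryonic library was left out.

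Genes of surface calcium channels differed in both directions. The L-type gene Cacna1c, the largest of the 4 given here in every library, had 12.5, 12.6 and 13.7 RPKM in embryonic hearts and 36.04, 40.1 and 38.9 in adult cells. Cacna1d, the L-type gene of pacemaker and atrial cells, had 4.82, 5.63 and 5.95 against 0.096, 0.118 and 0.136, and the T-type gene Cacna1h had 10.2, 12.5 and 13.3 against 0.432, 0.338 and 0.616. The other T-type gene, Cacna1g, was higher in adult cells, at 2.93, 4.07 and 4.07 RPKM against 0.167, 0.14 and 0.299. The T-type genes thus differed in opposite directions, with no overlap between groups in either.

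Sodium and potassium channel genes were largely higher in adult cells: 24 of 32 tested, against 4 higher in embryonic hearts, with a median of 3.31. Of the 32, 11 passed the filter through the adult group alone. Kcnip2, the accessory subunit of the transient outward current, had 0.248, 0.157 and 0.309 RPKM in embryonic hearts and 53.3, 68.4 and 53.4 in adult cells (difference 7.84, standard error 0.18, limma adjusted p = 8.34e-09). Kcnj2, an inward rectifier, had 2.397, 1.31 and 2.35 against 17.5, 16.1 and 16.5. Of the pacemaker channels Hcn2 was higher in adult cells (0.093, 0.354 and 0.155 against 9.32, 8.67 and 9.17 RPKM), while Hcn4 had 7.61, 7.404 and 7.52 in embryonic hearts and 3.52, 3.48 and 3.84 in adult cells and was not called (−0.59). Among the 4 higher in embryonic hearts were Scn7a and the sodium pump subunits Atp1b2 and Atp1b3.

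Connexin genes, whose proteins form gap junctions, differed in both directions. Gja5, a connexin of the trabeculae, atria and conduction system, had 28.97, 20.5 and 28.9 RPKM in embryonic hearts and 0.145, 0.091 and 0.226 in adult cells (difference −6.34, standard error 0.23, limma adjusted p = 5.51e-08). Gjc1, the connexin of the early heart and nodes, had 28.1, 23.2 and 25.5 against 4.39, 4.59 and 4.92, and Gja1, the main ventricular connexin and the largest of the 3 in every library, had 49.99, 36.01 and 48.6 against 64.2, 91.1 and 124. Adult replicate 1 had the lowest Gja1 of the adult libraries, still above every embryonic library. Of 20 connexin and intercalated disc genes tested, 13 were higher in adult cells and 3 in embryonic hearts (median 1.31). The 3 were Gja5, Gjc1 and the endothelial cadherin gene Cdh5.

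Of 18 T-tubule and caveola genes tested, 10 were higher in adult cells and 1, Bin1, in embryonic hearts (median 1.44). Cavin4, the muscle cavin of the T-tubule membrane, had 1.44, 1.41 and 1.21 RPKM in embryonic hearts and 41.4, 39.5 and 45.96 in adult cells. Bin1, which bends membrane into T-tubules, had 3.18, 1.84 and 2.11 RPKM in embryonic hearts and 0.036, 0.134 and 0.167 in adult cells, where its level was around that of 3 reads on 2 kb. Of 34 genes of adrenergic, muscarinic and natriuretic signalling tested, 19 were higher in adult cells and 6 in embryonic hearts (median 1.15). The α1A adrenergic receptor gene Adra1a was listed at 0 in all embryonic libraries and had 18.4, 18.5 and 12.6 RPKM in adult cells, at least 1619.7-fold higher against a floor of 3 reads over the group. The β1 receptor gene Adrb1 had 0.499, 0.629 and 0.967 against 5.03, 7.16 and 9.52, and the muscarinic receptor gene Chrm2 had 2.101, 0.771 and 1.52 against 33.4, 38.3 and 40.8. Corin, the protease that activates natriuretic peptides, had 4.97, 3.94 and 5.01 RPKM in embryonic hearts and 72.99, 77.8 and 68.3 in adult cells. Ednrb and Npr3, genes of endothelium and endocardium, led those higher in embryonic hearts.

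Genes of fuel metabolism were mostly higher in adult cells. All 29 genes of the TCA cycle and pyruvate entry were higher in adult cells (median difference 2.56), as were 74 of 78 nuclear genes of the respiratory chain (median 2.46, with 2 higher in embryonic hearts) and 38 of 43 genes of fatty acid uptake and oxidation (median 3.57, with 3 higher in embryonic hearts). Against these, 21.3% of all genes tested were higher in adult cells. The respiratory chain genes together took 6074 to 8864 RPKM in embryonic and 29374 to 30354 RPKM in adult libraries. Under the 7 scalings the lowest of these 3 medians was 1.499, that of the respiratory chain with quantile normalization.

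Among fatty acid genes, Cd36, the uptake receptor, had 5.97, 3.87 and 4.29 RPKM in embryonic hearts and 330.2, 314 and 323 in adult cells (difference 6.55, standard error 0.11, limma adjusted p = 3.32e-09), and Fabp3, the cytosolic carrier, had 44.8, 32.1 and 29.2 against 1427, 1354 and 1372. Cpt1b, the muscle enzyme that passes fatty acids into mitochondria, had 37.05, 29.7 and 28.04 against 208, 220.4 and 206 (difference 3.21, standard error 0.09, limma adjusted p = 1.63e-08). The liver form Cpt1a was higher in adult cells too, and Cpt1b was the larger of the pair in both groups. Plin5, which ties lipid droplets to mitochondria, had 0.283, 0.13 and 0.288 RPKM in embryonic hearts and 74.4, 72.9 and 52.9 in adult cells, and Ucp3, an inner membrane carrier, had 0.061, 0 and 0.025 against 30.9, 41.8 and 26.3. The members higher in embryonic hearts act in the synthesis or activation of other lipids: the acyl-CoA synthetase genes Acsl3 and Acsl4 and the acetyl-CoA carboxylase gene Acaca, with 3.74, 3.61 and 3.69 against 0.889, 0.699 and 0.562 RPKM.

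Regulators of these genes were higher in adult cells in 16 of 24 cases tested, against 21.3% of all genes, with 2 higher in embryonic hearts (median 1.84). Of the 24, 5 were above 1 RPKM in the adult group alone and entered the comparison through it, among them Ppara, Rxrg and Perm1. Ppara, the fatty acid sensing nuclear receptor, had 0.179, 0.13 and 0.343 RPKM in embryonic hearts and 16.5, 15.2 and 17.2 in adult cells, and its partner Rxrg had 0.566, 0.714 and 0.222 against 21.1, 21.1 and 26.1. Perm1, a muscle regulator of mitochondrial genes, had 0.479, 0.669 and 0.595 against 68.2, 71.8 and 89.5. The coactivator gene Ppargc1a, present at both stages, had 8.004, 6.75 and 8.57 RPKM in embryonic hearts and 21.2, 22.7 and 27.4 in adult cells. Nrf1 and Pprc1, which promote mitochondrial biogenesis in dividing cells, were the 2 higher in embryonic hearts, with 7.03, 6.08 and 5.38 against 1.56, 1.95 and 1.36 RPKM for Nrf1.

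Pyruvate entry and the respiratory chain held changes of form as well. Mpc1, a subunit of the mitochondrial pyruvate carrier, had 3.41, 1.88 and 2.19 RPKM in embryonic hearts and 50.99, 50.9 and 49.1 in adult cells (difference 4.78, standard error 0.15, limma adjusted p = 3.51e-08), and its partner Mpc2 had 18.6, 12.8 and 14.6 against 195, 172 and 179. Of the cytochrome oxidase subunits that have a heart and muscle form, Cox8b had 4.01, 1.22 and 4.12 RPKM in embryonic hearts and 790, 731 and 766 in adult cells beside Cox8a, which had 149, 123 and 136 against 77.4, 72.9 and 72.8 and was not called (−0.41). Cox6a2 rose from 14.3, 7.56 and 13.8 to 498, 457 and 548 RPKM while Cox6a1 fell from 189, 113 and 165 to 56.1, 41.6 and 42.6. In the pair Cox7a2 and Cox7a1 both forms were called higher in adult cells, and the muscle form became the larger. Besides Cox6a1, the gene higher in embryonic hearts was Ndufs5, which had 0.197, 5.09 and 5.87 RPKM in embryonic hearts and 0, 0.449 and 0.116 in adult cells, with embryonic replicate 1 far below the other two (limma adjusted p = 0.0436). The call of Ndufs5 was lost without embryonic replicate 2 or 3 and without adult replicate 1 or 3. It was also lost with quantile normalization (limma adjusted p = 0.12) and with scaling on Mediator and RNA polymerase II genes. A pseudocount of 0.01, no filter, sample weights and eBayes without its trend each lost it too.

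Genes of the mitochondrial ribosome differed less: 30 of 76 were higher in adult cells and 46 were not called, with a median difference of 0.84. Mrps23 led them with 14.3, 16.8 and 19.6 RPKM in embryonic hearts and 57.1, 49.95 and 58.5 in adult cells. Scaled to equal sums, the median of this list was 0.018 and 5 of its genes were called higher in adult cells, where 12.5% of all genes were.

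Genes of glucose use differed in both directions, often between forms of 1 enzyme. Of 42 genes of glucose transport, glycolysis and glycogen tested, 22 were higher in adult cells and 12 in embryonic hearts (median 1.07). These were 52.4% and 28.6%, against 21.3% and 32.5% of all genes, so the embryonic share was near that of all genes. The transporter Slc2a1 had 98.7, 139.5 and 113 RPKM in embryonic hearts and 4.56, 4.42 and 2.91 in adult cells, and the insulin-responsive Slc2a4 had 3.23, 2.32 and 3.16 against 137, 142 and 125. Among enolases Eno1 fell from 149.9, 167 and 118 to 9.79, 10.7 and 10.7 RPKM (−3.32), while the muscle form Eno3 rose from 66.7, 58.6 and 65.04 to 547, 607 and 595 (3.66). The lactate exporter Slc16a3 had 36.8, 49.6 and 40.4 RPKM in embryonic hearts and 0.158, 0.428 and 0.468 in adult cells. Of the lactate dehydrogenases, Ldha had 507, 535 and 472 RPKM in embryonic hearts and 212, 211 and 236 in adult cells and was not called (−0.74), and Ldhb had 72.3, 47.6 and 60.5 against 566, 518 and 516 and became the larger form.

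Pyruvate dehydrogenase kinases, which close the entry of pyruvate to the TCA cycle, differed in opposite directions. Pdk3 had 42.7, 37.5 and 39.9 RPKM in embryonic hearts and 0.19, 0.37 and 0.059 in adult cells. Pdk4, the kinase of fasting and fatty acid use, had 3.74, 3.86 and 3.41 against 393, 590.5 and 279, with adult libraries that spread widely but all lay far above the embryonic ones.

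Genes of high-energy phosphate and oxygen storage were among those with the largest differences. Besides Mb and Ckm, the mitochondrial creatine kinase gene Ckmt2 had 2.49, 3.1 and 2.26 RPKM in embryonic hearts and 963, 834 and 834 in adult cells, while the brain form Ckb had 32.95, 27.7 and 34.8 against 5.85, 6.47 and 6.59. Of the 16 genes for myoglobin, creatine kinase and iron tested, 7 were higher in adult cells and 4 in embryonic hearts. The shares of this list were 43.8% and 25%, against 21.3% and 32.5% of all genes. The median of this list, 0.63, changed its sign under equal sums (−0.18). Gatm and Gamt, the enzymes of creatine synthesis, were among the 4 higher in embryonic hearts, with 5.52, 4.803 and 4.42 RPKM of Gatm against 0, 0.072 and 0.075.

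Genes of cytosolic ribosomal proteins were higher in embryonic hearts in a share that depended on the scaling. Of 78 tested, 42 were higher in embryonic hearts, where 32.5% of all genes were, and 2 in adult cells (median −1.02). The 42 became 69 with quantile normalization, where 26.9% of all genes were higher in embryonic hearts, and 18 with scaling on Mediator and RNA polymerase II genes, where 26% of all genes were. They summed to 10327 to 15203 RPKM in embryonic and 4822 to 5001 in adult libraries. The 2 exceptions were Rps29 and Rpl3l. Rpl3l, the striated muscle form of Rpl3 (chromosome 17, 24727820 to 24736143), had 0.337, 0.547 and 0 RPKM in embryonic hearts and 139.5, 119 and 134 in adult cells, whereas Rpl3 had 231, 197 and 198 against 8.65, 14.7 and 17.3. Many of these genes have processed pseudogene copies in the genome, and the handling of reads that fit several copies is not given in the sources used here.

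The larger gene of elongation factor 1 alpha also changed. Eef1a1, the third most abundant transcript of the embryonic hearts, had 1326, 872 and 1019 RPKM there and 7.87, 10.8 and 13.4 in adult cells, while the muscle and neuron form Eef1a2 had 9.38, 4.95 and 11.6 against 419, 429 and 439.7. Of 29 genes of ribosome assembly and translation tested, 13 were higher in embryonic hearts and 1, Eef1a2, in adult cells (median −0.85).

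Most genes of cell division were higher in embryonic hearts. Of 51 cell cycle genes tested, 46 were higher in embryonic hearts, against 32.5% of all genes, and 3 in adult cells (median −5.12). Of 46 DNA replication genes, 44 were higher in embryonic hearts and 2 were not called (median −3.83). In these lists 34 and 30 genes were above 1 RPKM in the embryonic group alone, and so entered through it. Both lists are expressed by every dividing cell, so cardiomyocytes and the other cells of the embryonic heart cannot be told apart in them.

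Mki67, the proliferation antigen Ki-67, had 65.2, 48.1 and 52.8 RPKM in embryonic hearts and 0.157, 0.163 and 0.076 in adult cells (difference −7.55, standard error 0.18, limma adjusted p = 1.02e-08). Top2a, the topoisomerase that untangles chromosomes, had 95.9, 88.6 and 79.6 against 0.029, 0.044 and 0.034, and Cdk1, the kinase of mitosis, had 34.8, 26.5 and 27.4 against 0.026, 0.06 and 0.041. Adult levels of Top2a and Cdk1 were below that of 3 reads on 2 kb in every library. The 3 members higher in adult cells restrain the cycle: Cdkn1a, an inhibitor of cyclin-dependent kinases, had 4.34, 3.54 and 4.46 RPKM in embryonic hearts and 10.1, 5.66 and 9.99 in adult cells, and Rb1 and Rbl2, of the retinoblastoma family, were higher as well. Cdkn1c, another inhibitor and an imprinted gene, went the other way, with 439, 362 and 413 against 0.596, 0.925 and 0.959 RPKM. The replicative helicase gene Mcm6 had 45.7, 44.4 and 39.2 RPKM in embryonic hearts and 0.026, 0.058 and 0.04 in adult cells, and Mcm2 had 28.8, 28.4 and 28.7 against 0.853, 1.11 and 0.734.

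The promoters of these lists were searched for short motifs known from cell cycle genes, in windows of 300 bases from 250 before to 50 after the start of each gene, from RefSeq on GRCm38.p6, which matched 9215 of the genes tested. The CHR element, searched as TTTGAA on both strands, through which repressor complexes act on genes of mitosis, was in 47.5% of 40 cell cycle promoters and in 11.7% of all promoters. This share was not particular to the cell cycle list, since 48% of 50 promoters of replication-dependent histones held the element. For 36 replication promoters the share was 11.1%. For 942 promoters of genes higher in embryonic hearts beyond a log2 difference of 3 it was 19.9%. E2F sites, searched as TTTCCCGC or TTTGGCGC on both strands, were in 30.6% of 36 replication promoters and in 3.24% of all. The CCAAT box was in 67.5% of the cell cycle promoters, 61.1% of the replication promoters and 39.4% of all promoters. It was also in 61.5% of 26 TCA cycle promoters, 40.9% of 66 respiratory chain promoters and 42.9% of 35 fatty acid promoters. Fewer than 80% of the cell cycle and of the replication list had a window, so a share speaks of those windows alone. A match of letters is a description and not a shown binding site. The 200 bases before the start are printed for the 3 most expressed members of each list with a whole match there, with the CHR element in capitals in the first 3 and the E2F site in the last 3:
Top2a (chr11:99024190-99024389, minus strand): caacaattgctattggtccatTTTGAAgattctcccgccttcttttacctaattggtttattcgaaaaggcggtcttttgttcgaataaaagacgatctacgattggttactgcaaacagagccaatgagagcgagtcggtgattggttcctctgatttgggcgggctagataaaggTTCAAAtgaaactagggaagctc
Mki67 (chr7:135716380-135716579, minus strand): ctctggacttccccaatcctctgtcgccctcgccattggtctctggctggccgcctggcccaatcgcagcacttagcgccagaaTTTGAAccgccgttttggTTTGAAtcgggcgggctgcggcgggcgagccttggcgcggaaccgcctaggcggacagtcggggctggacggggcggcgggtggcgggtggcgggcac
Cdk1 (chr10:69352913-69353112, minus strand): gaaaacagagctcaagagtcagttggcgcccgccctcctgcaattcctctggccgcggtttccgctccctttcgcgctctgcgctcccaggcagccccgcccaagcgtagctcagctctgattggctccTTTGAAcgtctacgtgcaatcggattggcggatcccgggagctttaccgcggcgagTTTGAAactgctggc
Mcm6 (chr1:128359706-128359905, minus strand): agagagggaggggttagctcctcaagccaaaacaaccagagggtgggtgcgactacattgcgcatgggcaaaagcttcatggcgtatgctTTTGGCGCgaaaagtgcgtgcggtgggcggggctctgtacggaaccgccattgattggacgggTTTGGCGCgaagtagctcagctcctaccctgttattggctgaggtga
Mcm7 (chr5:138171884-138172083, minus strand): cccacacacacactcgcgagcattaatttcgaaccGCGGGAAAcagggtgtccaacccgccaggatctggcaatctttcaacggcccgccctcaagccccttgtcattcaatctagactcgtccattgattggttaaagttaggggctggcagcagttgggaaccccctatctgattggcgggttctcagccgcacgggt
Mcm5 (chr8:75109309-75109508, plus strand): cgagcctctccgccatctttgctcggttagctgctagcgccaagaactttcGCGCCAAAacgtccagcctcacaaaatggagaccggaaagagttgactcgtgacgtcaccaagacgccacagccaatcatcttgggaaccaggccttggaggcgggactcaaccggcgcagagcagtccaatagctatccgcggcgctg

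In Top2a the element lay 179 and 23 bases before the start, in Mki67 116 and 98 and in Cdk1 71 and 15. In embryonic hearts Mcm7 had 40.3, 35.7 and 32.97 and Mcm5 23.9, 25.8 and 21.9 RPKM, and in adult cells 2.104, 1.97 and 1.66 and 0.222, 0.283 and 0.224. In each of the 6 genes every embryonic library lay above every adult one.

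Replication-dependent histones, made in S phase, were mostly higher in embryonic hearts too. Of 67 histone genes by name prefix 55 were tested, 36 of them through the embryonic group alone, and 53 were higher in embryonic hearts and 1, Hist2h2be, in adult cells (median −5.72). They summed to 3048 to 3950 RPKM in embryonic and 224 to 246 in adult libraries. Hist1h1b had 166, 121 and 140.1 RPKM in embryonic hearts and 0.095, 0.358 and 0 in adult cells. The libraries were made from total RNA depleted of ribosomal RNA, which keeps these transcripts although they carry no poly(A) tail. Many histone genes are near-identical copies, so the level of any one of them is uncertain. A TATA box, searched as TATAAA on both strands, was in 60% of 50 histone promoters and in 6.84% of all promoters, and the CCAAT box in 86%.

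Promoters of lists with most members higher in adult cells were searched in the same way, beginning with the titin, M-band and Z-disc list. A TATA box was in 19.4% of 31 promoters of the list, and the M-CAT element of muscle promoters, searched as CATTCC on both strands, in 25.8% against 11.8% of all. For the respiratory chain the shares were 9.09% and 12.1%, and the NRF1 site, searched as CGCATGCG, was in 13.6% of its 66 promoters against 4.19% of all. These shares were not those of adult genes at large. In 469 promoters of genes higher in adult cells beyond a log2 difference of 3, the TATA box was in 10.4%, against 6.84% of all. The M-CAT element was in 12.8% of the 469 and the NRF1 site in 2.99%. The ERR element, searched as TCAAGGTCA, was in 1 of the 66 respiratory chain promoters (1.52%) and in 22 of all 9215 (0.239%). With 1 match, the share of the respiratory chain list cannot be set apart from that of all promoters. The element was in 5 of the 469 (1.07%) and in 0% of the 35 fatty acid promoters. The 200 bases before the start are printed for the 3 most expressed genes of the titin, M-band and Z-disc list with a TATA box match there on either strand, in capitals:
Fhl2 (chr1:43196762-43196961, minus strand): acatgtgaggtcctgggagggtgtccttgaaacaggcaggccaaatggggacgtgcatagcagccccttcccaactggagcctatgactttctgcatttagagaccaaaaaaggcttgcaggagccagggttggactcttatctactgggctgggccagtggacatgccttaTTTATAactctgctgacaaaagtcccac
Smyd1 (chr6:71262282-71262481, minus strand): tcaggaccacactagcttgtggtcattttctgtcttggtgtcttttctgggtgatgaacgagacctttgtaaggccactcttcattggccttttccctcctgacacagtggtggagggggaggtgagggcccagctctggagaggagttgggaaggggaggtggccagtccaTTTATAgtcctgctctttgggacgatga
Trim63 (chr4:134314920-134315119, plus strand): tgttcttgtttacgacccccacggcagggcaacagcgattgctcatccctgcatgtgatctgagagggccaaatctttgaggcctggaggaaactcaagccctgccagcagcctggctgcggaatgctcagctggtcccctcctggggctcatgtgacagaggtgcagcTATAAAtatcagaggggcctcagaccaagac

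The match lay 28, 28 and 31 bases before the start in Fhl2, Smyd1 and Trim63. Only Trim63 reads TATAAA on the strand printed, while Fhl2 and Smyd1 read TTTATA there and match on the opposite strand. Fhl2, a LIM protein of the sarcomere, had 37.4, 28.3 and 29.2 RPKM in embryonic hearts and 660.4, 509 and 734 in adult cells, and Trim63, a muscle ubiquitin ligase, had 18.6, 12.9 and 15.99 against 88.3, 90.3 and 75.4. Smyd1, a methyltransferase that helps to fold myosin, had 98.95, 95.3 and 104 against 129, 116 and 136 and was not called (0.81).

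Most imprinted genes were higher in embryonic hearts. Of 25 imprinted genes tested out of 36 listed, 19 were higher in embryonic hearts and 2 in adult cells (median −3.54), and 11 were above 1 RPKM in the embryonic group alone. Igf2, the fetal insulin-like growth factor, had 766, 549.5 and 676 RPKM in embryonic hearts and 0.788, 0.919 and 0.791 in adult cells (difference −9.03, standard error 0.10, limma adjusted p = 7.62e-10). Copg2 had 228, 225 and 210.5 against 8.12, 7.71 and 7.38, and since it overlaps the transcripts of Mest on the other strand, its reads cannot be told from those of Mest without strand-aware counting, which is not stated. Snrpn and Zrsr1 were the 2 higher in adult cells.

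Of 33 fetal RNA-binding proteins and growth factors tested, 29 were higher in embryonic hearts and 1, Fgf16, in adult cells (median −3.80), with 20 above 1 RPKM in the embryonic group alone. Igf2bp1, which binds Igf2 mRNA, had 34.7, 30.7 and 31.6 RPKM in embryonic hearts and 0, 0.007 and 0.014 in adult cells. Hmga2, a chromatin protein repressed by let-7, had 38.9, 33.9 and 32.8 against 0, 0.03 and 0. Lin28a, which blocks let-7 maturation, had 0.857, 2.54 and 0.923 RPKM and was listed at 0 in all adult libraries, at least 59.6-fold lower. Fgf16 had 0, 0.021 and 0 RPKM in embryonic hearts and 1.61, 2.96 and 3.15 in adult cells.

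Transcription factors of the heart differed more often towards embryonic hearts. Of 43 tested, 21 were higher in embryonic hearts, against 32.5% of all genes, 4 in adult cells, against 21.3%, and 18 were not called (median −0.96), with 16 above 1 RPKM in the embryonic group alone. Nkx2-5, the homeobox factor of cardiomyocytes, had 25.8, 26.4 and 30.4 RPKM in embryonic hearts and 21.1, 22.3 and 27.1 in adult cells, and its groups overlapped (difference 0.22, limma adjusted p = 0.134). Gata4 had 46.9, 40.9 and 44.5 against 20.9, 23.3 and 25.2, and Tbx5 16.4, 14.002 and 15.2 against 9.33, 8.81 and 6.36, and neither was called (differences −0.47 and −0.45). Hand1, a factor of the early left ventricle, had 18.1, 13.1 and 17.6 RPKM and was listed at 0 in all adult libraries, at least 355-fold lower, and Mycn, a driver of proliferation in the embryonic myocardium, had 11.7, 19.3 and 13.8 against 0, 0 and 0.091. Hopx, a homeodomain protein without DNA binding, was among the 4 higher in adult cells, with 61.1, 45.6 and 59.8 against 114, 110.3 and 128 RPKM.

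Chromatin genes were on the embryonic side in 20 of 39 cases tested and on the adult side in 4 (median −1.04). Dnmt1, which maintains DNA methylation through replication, had 32.4, 26.4 and 30.4 RPKM in embryonic hearts and 2.31, 2.31 and 2.6 in adult cells. Of the polycomb methyltransferases, Ezh2 fell from 23.9, 20.2 and 21.3 to 1.09, 1.68 and 1.07 RPKM and Ezh1 rose from 2.83, 3.37 and 2.76 to 6.84, 7.79 and 5.87, and the polycomb reader Cbx7 had 0.155, 0.109 and 0.321 against 2.58, 3.35 and 3.01. Of 23 splicing regulators tested, 10 were higher in embryonic hearts (43.5%, against 32.5% of all genes) and 6 in adult cells (26.1%, against 21.3%). With so few members these shares do not set the list apart from all genes, and the members named are single genes. Ptbp1, a repressor of muscle exons, had 38.9, 34.8 and 34.7 RPKM in embryonic hearts and 2.45, 2.36 and 2.898 in adult cells, whereas Rbfox1, an activator of muscle and neuronal exons, had 0.408, 0.38 and 0.338 against 9.99, 11.02 and 9.54. Rbm20, which splices titin, was among the 6.

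The gene targeted in the study was expressed at both stages in these controls. Med30 (chromosome 15, 52712408 to 52730564) had 10.6, 13.3 and 11.3 RPKM in embryonic hearts and 7.66, 7.45 and 7.66 in adult cells. Its difference after scaling was −0.16 (limma adjusted p = 0.28). It was −0.62 with RPKM as deposited (limma adjusted p = 0.00073) and −0.98 with equal sums (limma adjusted p = 0.00021). With equal sums without the 20 and the 200 most abundant genes it was −0.67 and −0.42. It turned to 0.18 (limma adjusted p = 0.23) where libraries were scaled on Mediator and RNA polymerase II genes. Of 33 Mediator genes 24 were not called, 7 were higher in embryonic hearts and 2, Med25 and Med16 of the Tail, in adult cells. Their median was −0.27, near the −0.30 of all genes. It was 0.065 under the scaling on Mediator and RNA polymerase II genes, which brings the differences of these genes near 0 by its construction. Med18 of the Head had 4.72, 4.38 and 4.32 RPKM in embryonic hearts and 0.811, 0.913 and 0.842 in adult cells. Of 46 genes of RNA polymerase II and its general factors 36 were not called, 9 were higher in embryonic hearts and 1 in adult cells (median −0.42). With equal sums the genes higher in embryonic hearts numbered 20 for Mediator and 31 for RNA polymerase II, where 53% of all genes were.

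Matrix genes were higher in embryonic hearts in 30 of 36 cases tested and in adult cells in 3 (median −3.92), with 23 above 1 RPKM in the embryonic group alone. Hapln1 and Has2, which link and make the hyaluronan of the cushions, had 60.98, 55.4 and 51.5 and 10.8, 8.92 and 8.92 RPKM in embryonic hearts and 0.015, 0.034 and 0.012 and 0, 0.013 and 0.014 in adult cells. The cartilage collagen gene Col2a1 had 30.4, 33.98 and 35.9 against 0.046, 0.012 and 0. The 3 higher in adult cells were laminin chains of the muscle basement membrane: Lamb2 had 7.74, 7.21 and 8.45 RPKM in embryonic hearts and 64.8, 65.6 and 71.95 in adult cells, beside Lama2 and Lama5. Of 33 genes of the dystrophin complex and integrins tested, 16 were higher in adult cells and 9 in embryonic hearts (median 0.86). These were 48.5% and 27.3%, against 21.3% and 32.5% of all genes. Itga7, the muscle laminin receptor, had 0.41, 0.172 and 0.154 RPKM in embryonic hearts and 39.4, 41.7 and 43.98 in adult cells. Itga4, a fibronectin receptor of the epicardium, had 6.85, 9.18 and 5.58 against 0.015, 0.04 and 0.012. The sums of fibroblast, endocardial and epicardial markers given above were higher in the same samples, and their part in the matrix list was not tested.

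Most genes of the stress and immediate early response were higher in adult cells. Of 30 immediate early and heat shock genes tested, 19 were higher in adult cells and 2 in embryonic hearts (median 2.56). Fos had 2.85, 1.101 and 3.14 RPKM in embryonic hearts and 30.9, 70.4 and 39.6 in adult cells (difference 4.74, standard error 0.39, limma adjusted p = 6.51e-06), while Jun had 13.1, 12.9 and 15.2 against 71.4, 100.4 and 64.97 and Dusp1, a phosphatase induced with them, had 4.28, 3.52 and 5.42 against 55.04, 87.97 and 93.3. The adult libraries of Fos spread widely, with replicate 2 highest, and all lay above the embryonic ones. Enzymatic isolation was done for the adult group alone and cannot be told apart from age here. The small heat shock protein gene Hspb6, of striated and smooth muscle, had 2.18, 2.09 and 0.841 RPKM in embryonic hearts and 379.7, 394 and 424 in adult cells, while the inducible chaperone gene Hsp90aa1 had 116, 86.5 and 84.9 against 13.9, 13.3 and 15.7.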

How the data were processed

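RNA-seq of 3 Ctrl E10.5 hearts and 3 Ctrl adult cardiomyocyte samples was analysed. The authors made libraries from total RNA depleted of ribosomal RNA and deposited 1 table of RPKM values per experiment, with each table normalized on its own. The submitters' processing notes name cutadapt 2.6, STAR 2.5.3a, HOMER 4.11.1, DESeq2 1.12.4 and the build GRCm38; strand-aware counting is not given in the sources used here. The tables also hold group means, log2 fold changes and false discovery rates of the authors' own comparisons, which were not used, and neither were the 6 columns of knockout samples.

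The tables were joined by symbol (20775 genes). Libraries were scaled by the median ratio, 0.1 was added, and log2 values were tested with lmFit and eBayes (trend) of limma 3.58.1 in R 4.3.3, with adjusted p-values over 11455 genes above 1 RPKM in either group. In simulated data with 200 genes changed by a log2 difference of 2, 191 were recovered with 5 false calls among 11070 genes tested. The simulation changed few genes, in directions drawn at random, around the embryonic means, whereas 53.9% of genes were called in these data. It therefore cannot show how the scaling or the rate of false calls behaves here. RPKM are not counts, so no count test was run. Steps in the lowest values gave 71.4% to 74.1% whole reads (tolerance 0.1, 20% by chance), which served for the estimate of depth alone. Replicates differed beyond sampling noise (chi-square per degree of freedom 6.72 to 11.6). P-values measure the spread between these samples, and the sources used here do not say whether embryonic samples were separate litters. Coordinates are those of the annotation of GRCm38, in which 99.5% of the genes were matched.

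Members, pairs and lists were chosen with earlier results of these data known. Genes were named by rule: all of the pairs, the 10 largest differences above 20 RPKM in each direction, up to 3 members per list and direction with 1 against its majority, the first 3 members of each list, the 5 most abundant genes of each group, cell type markers, and Med30. Atp1b3, Atp2a2, Casq1, Copg2, Dusp1, Fhl2, Jun, Kcnj2, Mcm5, Mcm7, Myh10, Myh9, Myl6, Ppargc1a, Smyd1, Tbx5 and Trim63 were named after their values were seen. Some genes that the rule names are not reported here. Alternatives were other scalings, pseudocounts, filters, weights, a replicate block, and each library left out.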

Additional observations from a re-analysis of the deposited data

How the results depend on the processing

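Scaling moved the balance of calls most. Genes higher in adult and in embryonic samples numbered 1783 and 4984 with RPKM as deposited, 2735 and 3080 with quantile normalization, 1427 and 6069 with equal sums, 1726 and 5152 with equal sums without the 20 most abundant genes, 2049 and 4428 without the 200 most abundant, and 3157 and 2979 with scaling on Mediator and RNA polymerase II genes, against 2443 and 3726. The median of all genes ranged from −1.11 (equal sums) to 0.04 (Mediator and RNA polymerase II genes). Beyond a log2 difference of 3, genes higher in adult samples fell from 618 to 369 with equal sums and to 359 with a pseudocount of 1, which also left 354 of 1203 higher in embryonic samples. A filter at 5 RPKM tests fewer genes and left 2250 and, beyond 3, 709 higher in embryonic samples. Leaving out each library in turn gave 2402 to 2502 and 3644 to 3763 calls beyond 1, and 588 to 640 and 1165 to 1234 beyond 3. With no filter there were 2780 and 4799 calls. A replicate block gave 2443 and 3727 calls, 619 and 1203 of them beyond 3; same-numbered libraries of the groups did not deviate together (r from −0.01 to 0.02), so the numbers do not pair the samples.

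Among single genes, Acta1 turned to −0.0094 with RPKM as deposited, −0.52 with quantile normalization, −0.38 with equal sums, −0.067 without the 20 most abundant genes, and ranged from −0.12 to 0.96 with 1 library left out. Nkx2-5 turned to −0.23 as deposited, −0.21 by quantiles, −0.60 with equal sums, and −0.29 and −0.035 without the 20 and the 200 most abundant genes. Actc1 turned to −0.83 by quantiles and, as a difference of within-library percentile ranks, to −0.012. Smyd1 turned to −0.12 by quantiles, −0.017 with equal sums and −0.16 in percentile ranks, and Scn7a to 0.79 in percentile ranks. Arntl turned to 0.16 by quantiles and Med30 to 0.18 with scaling on Mediator and RNA polymerase II genes. Against a 2-fold limit (treat), 1908 and 2866 genes passed, and of those called and named above Atp1b2, Calr, Casq1, Cdkn1a, Cox6a1, Gja1, Med16, Ndufs5, Nppa, Rps29 and Snrpn did not. The medians of the sarcoplasmic reticulum and creatine kinase lists also changed sign, as given above. So did that of the Mediator list, but only under the scaling that takes its factors from Mediator and RNA polymerase II genes. For single genes the cause of a turn was not tested. Depth limits genes near 0: a level below 0.0753 to 0.114 RPKM is under 3 reads on 2 kb.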

Other observations

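Genes of the circadian clock, which set daily rhythms in most cells, were a further list higher in adult cells: 13 of 17 tested were higher there and 4 were not called (median 2.59, against 21.3% of all genes higher in adult cells). They include targets and repressors of the clock. Dbp, a clock output factor, had 1.54, 0.824 and 2.07 RPKM in embryonic hearts and 36.5, 35.8 and 32.1 in adult cells (difference 4.99, standard error 0.25, limma adjusted p = 3.5e-07). Nr1d1, the repressor REV-ERB alpha, had 2.47, 1.41 and 1.75 against 10.03, 16.7 and 51.04, with adult replicate 3 highest. Arntl, whose transcription Nr1d1 represses, had 2.15, 1.65 and 1.95 against 0.653, 0.432 and 1.61 and was not called (limma adjusted p = 0.102). Under some alternatives Arntl was called higher in embryonic hearts, as with RPKM as deposited (−1.19, limma adjusted p = 0.018) and without adult replicate 3 (−1.25, limma adjusted p = 0.0014). By quantiles its difference was 0.16. The hour at which samples were collected is not given in the sources used here, and its part in these values was not tested.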
